A study of Danio rerio with 10 samples.

Results

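In the deposited zebrafish (Danio rerio) gene table, the identifiers from LL0000017600 to LL0000017800 name a stretch of rows in which many genes differed in level between wild-type and uts2r3 mutant embryos. The stretch was chosen by its identifiers after it was seen that genes called between the genotypes gathered there, so every difference between the genotypes given here is a description without a test. Of 201 possible identifiers, 198 were rows of the table, and 120 of these had 10 or more counts summed over the 10 libraries. These 120 rows are the members, out of 30862 rows with 10 or more counts and 36351 rows in all. The files do not pair the identifiers with gene names, and 0 of them had a match in the reference lists of gene names. The members therefore have no known product or role, and they are described by their level, length and pattern across libraries.

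The urotensin receptor uts2r3 is a cell-surface receptor for short urotensin-related peptides. In zebrafish these peptides are released by neurons that contact the cerebrospinal fluid, and their signal keeps the body axis straight. Fish without the receptor hatch and grow but develop a curved spine, and for that reason they serve as a model of idiopathic scoliosis.

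Whole bodies were taken at 28 hours post-fertilization (hpf) and their total RNA was sequenced. There were 4 libraries of wild-type embryos and 6 libraries of embryos homozygous for a uts2r3 mutation. The labels' extraction protocol counts 5 and 5 instead, and the labels of the single samples were followed. The allele, the strain background and the number of embryos per library were not given, nor whether libraries came from separate clutches, so the spread between libraries may be technical. Library names in the table follow one scheme for wild type and another for mutants, so genotype and any separate handling of the 2 groups cannot be told apart. Wild-type libraries held 62001742 to 73442336 counts each, and the shallower mutant libraries 31247787 to 42423874. Since uts2r3 and tissue markers could not be found among the identifiers, neither the genotype labels nor the tissue has a check from the data. In whole embryos, fewer cells of a type and less RNA per cell cannot be told apart.

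The members were weakly expressed. Levels are given as normalised CPM (the share of a library's TMM-scaled total, in the usual CPM unit), and between genes only as CPM per kilobase of the deposited gene length. The median member was at 0.127 CPM per kilobase over all libraries, against 1.28 in the other rows with 10 or more counts. A mean of at least 1 CPM was reached by 17 of the 120 members (14.2%) and by 64.2% of the other rows. The members were also short, with a median length of 1397 bases (178 to 7089) against 2710 bases elsewhere. Of the 198 rows in the block, 78 (39.4%) had under 10 counts, and 37 of these had none, whereas 15.0% of the remaining rows of the table had under 10 counts.

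**Figure D1:**
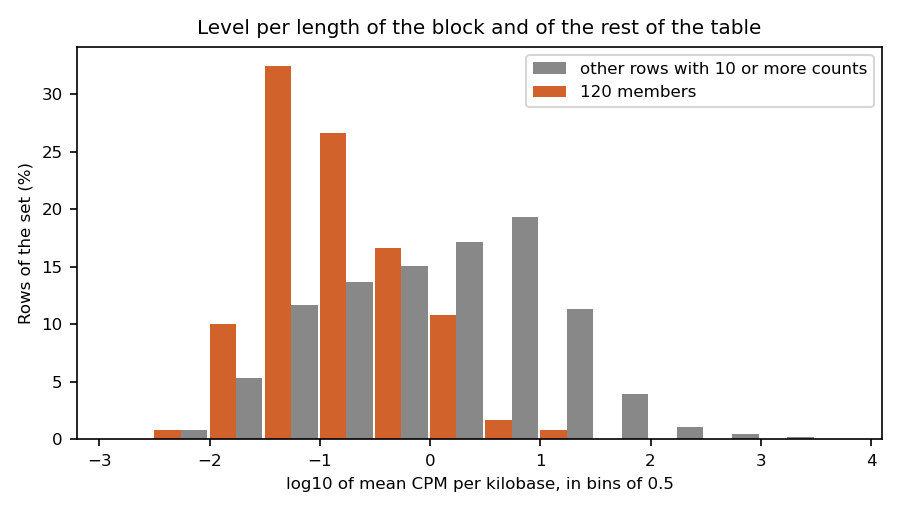
Distribution of the mean level over the 10 libraries, as log10 of CPM per kilobase in bins of 0.5, for the 120 members (orange) and for the other rows with 10 or more counts (grey), each as percent of its set. The members lie to the left of the rest of the table, with medians of 0.127 and 1.28 CPM per kilobase.

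The low level was shared with the neighbouring identifiers. In the 200 identifiers before the block, 137 rows had 10 or more counts, with a median of 0.200 CPM per kilobase and a median length of 1241 bases. In the 200 identifiers after it, 122 rows had 10 or more counts, with medians of 0.0942 CPM per kilobase and 1050 bases. The share of rows under 10 counts was 31.5% before and 38.1% after the block.

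Per length, the highest member was LL0000017730, a gene of 193 bases. It lay at 8.97 CPM per kilobase in wild type and 13.0 in the mutants, and its groups overlapped. The next was LL0000017746 (636 bases), at 3.72 and 5.50 CPM per kilobase. By CPM alone, the most abundant members were LL0000017668, LL0000017693, LL0000017646, LL0000017610 and LL0000017727, of which the last 2 did not separate the genotypes. LL0000017610 (1722 bases) was at 5.15, 4.83, 4.62 and 3.58 CPM in wild type and at 5.13, 4.63, 3.91, 5.17, 4.26 and 3.62 CPM in mutants 1 to 6. These libraries overlapped throughout, with means of 4.54 ± 0.681 (SD, n = 4) and 4.45 ± 0.638 CPM (SD, n = 6). LL0000017727 (1761 bases) was at 3.91 ± 0.619 CPM in wild type (SD, n = 4) and 4.68 ± 0.999 CPM in the mutants (SD, n = 6). Its lowest library, at 2.96 CPM, was mutant replicate 2. Members that were not called thus stood among called ones: the called members nearest to LL0000017727 in the table were LL0000017718, which fell, and LL0000017731, which rose.

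Of the 120 members, 53 passed the filter on low counts and entered the genotype test, and 67 did not. The 67 had means of 0.284 CPM or less. A member can pass that filter through the genotype in which it is high, so the 53 are not a neutral sample of the members. The test was fitted on all 24608 genes that passed the filter (edgeR quasi-likelihood test, called at a Benjamini-Hochberg adjusted p under 0.05). Of the 53, 15 were called higher and 14 lower in the mutants, and 24 were not called. Over all genes tested, 6.38% were called higher and 5.3% lower. Since calls of this contrast chose the block, nothing is read from the difference.

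The changes were large in both directions. A fitted change of at least 2-fold was found for 11 of the 15 members that rose and 13 of the 14 that fell. Among all called genes the shares were 25.4% of those higher and 38.1% of those lower, or 1.62% and 2.02% of all genes tested. A change of at least 4-fold was found for 3 of the 15 that rose and 8 of the 14 that fell. Among all called genes the shares were 4.71% and 16.8%, or 0.301% and 0.89% of all genes tested. The median log2 change was 1.35 among the members that rose and -2.05 among those that fell, against 0.53 and -0.74 among all called genes. All called genes were not matched to the members in abundance or spread. The median within-genotype SD of log2 CPM was 0.40 over the 53 and 0.19 over the other genes tested. Small changes are harder to call at a wider spread, so these shares and medians are not like for like. The median size of the log2 change over the 53 was 1.20, against 0.16 over the other genes tested, which were more abundant. Between the lower and upper quartile of the members' abundance it was 1.35 for 27 members and 0.33 for 4063 other genes. Like abundance does not undo the choice of the block by calls of this contrast, so nothing is read from these differences. The medians of -2.05 and 1.20 were the same when the member with no mutant count was set to its bound. The mutants all exceeded the highest wild-type library in 12 of the 15 called higher, and all stayed under the lowest in 14 of the 14 called lower. Such separation was found in 77.4% and 76.9% of all genes called higher and lower, and a call makes it likely.

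**Figure D2:**
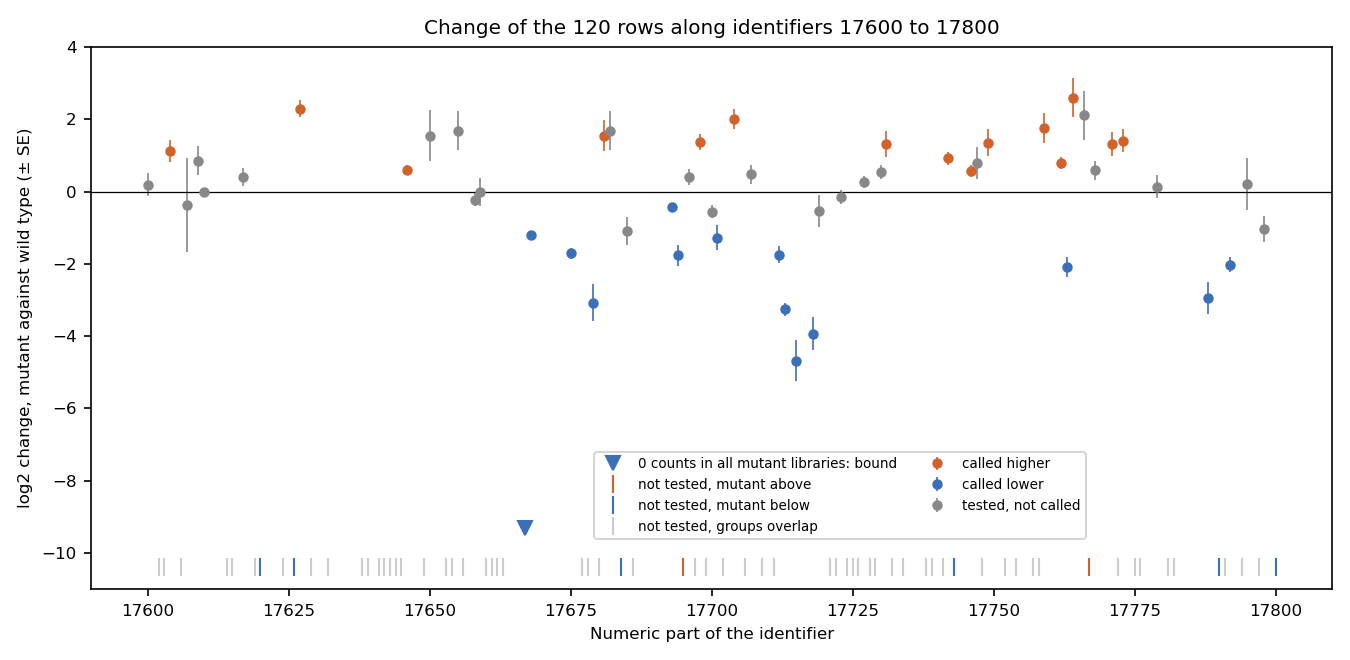
Fitted log2 change, mutant against wild type, with its SE, for the tested members along the numeric part of the identifier (called higher in orange, called lower in blue, not called in grey). The blue triangle is the bound for the member with 0 counts in all mutant libraries, and the ticks at the bottom mark the 67 members not tested. Among tested members, falls are gathered around 17667 to 17679 and 17712 to 17718. Rises are gathered around 17731 to 17773, where LL0000017763 fell and 3 tested members were not called. Of the untested members in that last stretch, LL0000017743 lay entirely below wild type and LL0000017767 entirely above, and the rest overlapped.

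Among all 120 members, tested or not, the mutant libraries lay entirely above the wild-type libraries in 14 and entirely below in 20, and the genotypes overlapped in 86. Over all rows with 10 or more counts these shares were 5.34% above and 4.97% below.

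Rises and falls were interleaved along the identifiers. From LL0000017600 to LL0000017649, 3 of 8 tested members were called higher and 0 lower. From LL0000017650 to LL0000017699, 2 of 15 were called higher and 6 lower. From LL0000017700 to LL0000017749, 5 of 17 were called higher and 5 lower. From LL0000017750 to LL0000017800, 5 of 13 were called higher and 3 lower. The 29 called members gave 28 pairs of neighbours in identifier order, of which 17 had the same direction and 11 opposite directions. The longest runs of tested members called alike were 4 that fell in a row, LL0000017667 to LL0000017679 and again LL0000017712 to LL0000017718. The longest runs that rose held 3. Untested members were passed over in these runs. Within the first run of falls, untested LL0000017677 and LL0000017678 had more counts in the mutants (35 against 17 and 19 against 8), with overlapping genotypes. In the 200 identifiers before the block, 5 of 66 tested genes were called higher and 7 lower. In the 200 after it, 4 of 46 were called higher and 2 lower. Over all genes tested, 6.38% were called higher and 5.3% lower. The block was chosen where calls gathered, so nothing is read from its difference to these neighbours.

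The first run of falls began with LL0000017667 (2454 bases), the only member at 0.5 CPM or more in every library of a genotype and with at most 3 counts over the other. The share of all rows that met this rule was not calculated, so nothing is read from the number of such members. LL0000017667 was at 4.66, 11.2, 6.47 and 12.0 CPM in wild-type replicates 1 to 4, and it had 0 counts in each of the 6 mutant libraries. The wild-type libraries differed among themselves by more than 2-fold, in 2 pairs of alike level (replicates 1 and 3, and replicates 2 and 4). The wild-type mean of 8.57 ± 3.56 CPM (SD, n = 4) was at least 640.5-fold above the mutant level, taking 3 counts over the mutant group (0.0134 CPM) as the floor and leaving aside the error of the wild-type mean. Exact binomial limits at 95%, which cover counting error in both genotypes only, put the mutant to wild-type ratio of summed counts at up to 0.00189, a slightly weaker bound.

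Its neighbour LL0000017668 (5634 bases) was the most abundant member. It was at 13.3, 12.1, 14.8 and 11.5 CPM in wild type and at 6.16, 5.26, 5.87, 5.09, 6.48 and 4.81 CPM in mutants 1 to 6. The mutant libraries all lay near the same lower level, 2.30-fold below the wild-type mean (log2 change -1.20, SE 0.10). LL0000017675 (7019 bases) was at 5.27, 3.69, 6.03 and 4.39 CPM in wild type and at 1.43, 1.41, 1.69, 1.23, 1.38 and 1.73 CPM in the mutants. This was 3.28-fold lower (log2 change -1.71, SE 0.15), with a gap between the lowest wild-type and the highest mutant library. The fourth of the run, LL0000017679 (1623 bases), went from 0.591 ± 0.185 (SD, n = 4) to 0.0708 ± 0.0696 CPM (SD, n = 6).

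The second run of falls held LL0000017712, LL0000017713, LL0000017715 and LL0000017718. LL0000017713 (2681 bases) was at 7.08, 6.07, 5.92 and 5.35 CPM in wild type and at 0.740, 0.654, 0.411, 0.461, 0.595 and 0.975 CPM in the mutants. It fell 9.55-fold (log2 change -3.26, SE 0.19), and no mutant library reached 1 CPM. LL0000017712 (1773 bases) was at 2.35, 1.82, 2.55 and 1.72 CPM in wild type and at 0.764, 0.419, 0.507, 0.410, 0.689 and 1.01 CPM in the mutants. Its 3.34-fold fall (log2 change -1.75, SE 0.24) was smaller than that of its direct neighbour, and in both members mutant replicate 6 was the highest of the mutant libraries.

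LL0000017718 (5457 bases) was at 1.24, 1.13, 2.44 and 1.59 CPM in wild type and at 0.167, 0.105, 0.0483, 0.0512, 0 and 0.252 CPM in the mutants. It fell 15.4-fold (log2 change -3.93, SE 0.45), and mutant replicate 5 held no count. LL0000017715 (2334 bases) had 107 counts summed over wild type and 3 summed over the mutants, which came from mutant replicates 3 and 4. Its depth-corrected mutant to wild-type ratio was 0.0331 (exact binomial 95% limits of 0.00672 and 0.0994, for counting error).

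The remaining falls were single or in runs of 2 tested members, LL0000017693 with LL0000017694 and LL0000017788 with LL0000017792. LL0000017693 (2593 bases), among the most abundant members, was at 7.63, 7.56, 8.16 and 8.93 CPM in wild type and at 5.78, 6.28, 6.21, 6.27, 5.86 and 5.50 CPM in the mutants. Its 1.35-fold fall (log2 change -0.43, SE 0.08) was the smallest of the members called lower, and its libraries of a genotype lay closest together, with a within-genotype SD of 0.0911 on the log2 scale. LL0000017694, the next identifier, went from 0.687 ± 0.184 (SD, n = 4) to 0.199 ± 0.0637 CPM (SD, n = 6). LL0000017763 (2562 bases) fell 4.34-fold between LL0000017762 and LL0000017764, which both rose.

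Near the end of the block, LL0000017788 (664 bases) was at 1.29, 0.983, 1.27 and 1.43 CPM in wild type. In mutants 1 to 6 it was at 0.0716, 0.131, 0.121, 0.0768, 0.532 and 0.0629 CPM. Mutant replicate 5 stood above the other mutant libraries and still below every wild-type library. The log2 change was -2.95 (SE 0.43) with all libraries and -3.71 (SE 0.28) without mutant replicate 5. LL0000017792 (2699 bases) was at 3.63, 2.44, 4.43 and 2.75 CPM in wild type and at 0.644, 0.654, 0.918, 0.768, 1.13 and 0.786 CPM in the mutants. It fell 4.06-fold (log2 change -2.02, SE 0.20) without overlap.

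Among the rises, LL0000017627 (1034 bases) had the largest change of the members averaging at least 0.5 CPM. It was at 0.270, 0.726, 0.420 and 0.349 CPM in wild type and at 2.08, 2.07, 2.56, 2.18, 2.25 and 1.89 CPM in the mutants. All mutant libraries lay close to the mean of 2.17 ± 0.228 CPM (SD, n = 6), 4.92-fold above wild type (log2 change 2.29, SE 0.24). LL0000017704 (456 bases) was at 0.175, 0.499, 0.280 and 0.321 CPM in wild type and at 1.19, 1.60, 1.18, 1.43, 1.31 and 1.04 CPM in the mutants. It rose 4.06-fold (log2 change 2.01, SE 0.26), and the lowest mutant library was more than 2-fold above the highest wild-type library. LL0000017698 (1801 bases) was at 0.334, 0.499, 0.482 and 0.629 CPM in wild type and at 1.38, 1.44, 0.990, 1.18, 1.35 and 1.26 CPM in the mutants, a rise of 2.61-fold (log2 change 1.37, SE 0.21).

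**Figure D3:**
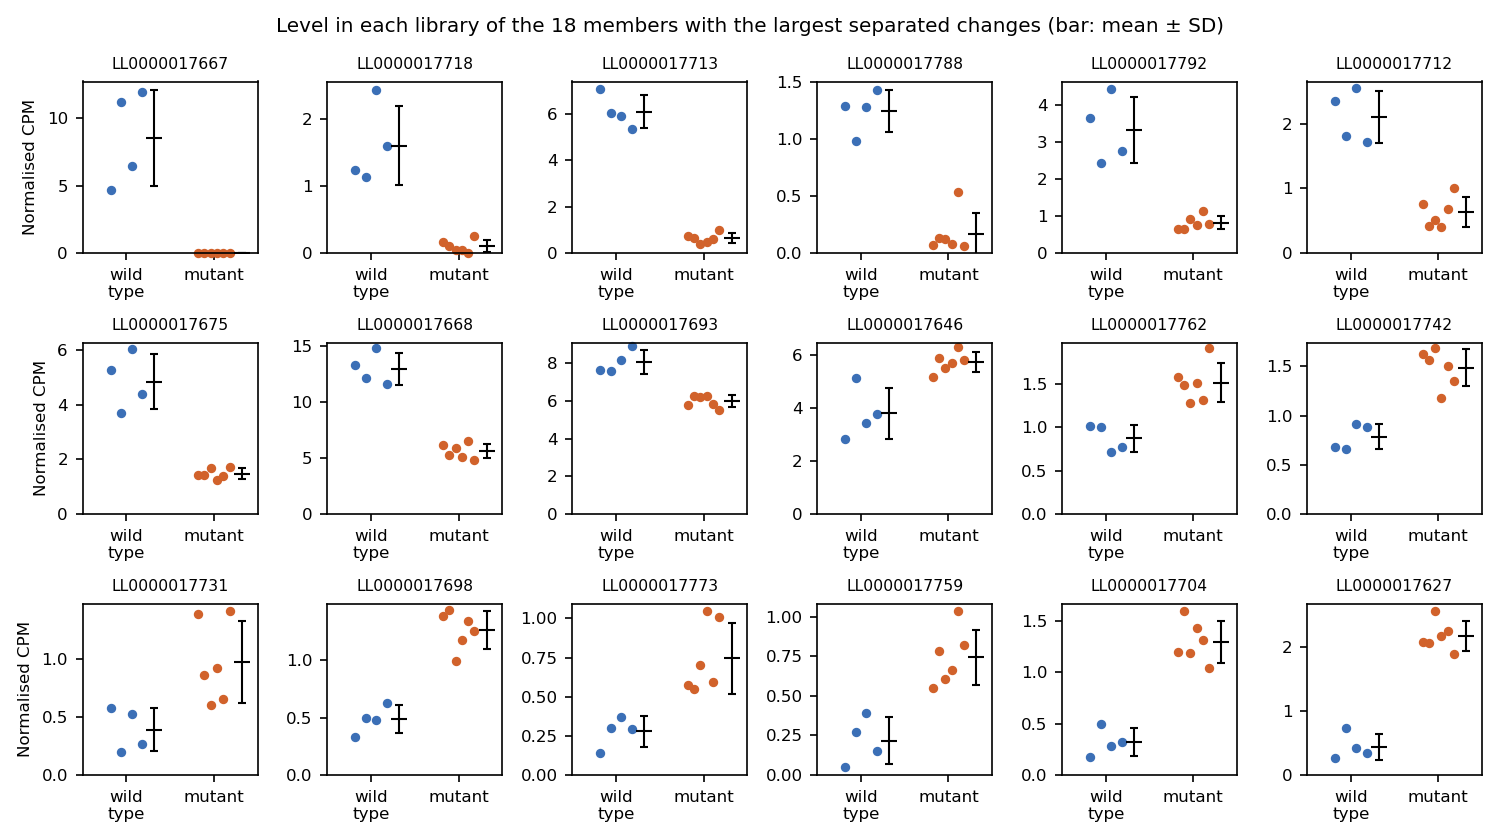
Normalised CPM in each library of all 18 tested members that average at least 0.5 CPM and whose genotypes do not overlap (9 fell and 9 rose). Panels are ordered from the largest fall to the largest rise (blue wild type, 4 libraries; orange mutant, 6 libraries; black, mean ± SD, cut at 0). Members under 0.5 CPM, such as LL0000017715 and LL0000017764, are left out whatever their change. Each panel has its own axis starting at 0. LL0000017667 has 0 counts in all mutant libraries, and LL0000017788 shows mutant replicate 5 at 0.532 CPM above the other mutants.

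Of the 10 called members from LL0000017731 to LL0000017773, 9 rose and 1 fell, some of them by less than 2-fold. In the same stretch, untested LL0000017743 lay below wild type (10 mutant against 77 wild-type counts) and untested LL0000017767 above (37 against 13). LL0000017742 (2673 bases) was at 0.684, 0.666, 0.917 and 0.880 CPM in wild type and averaged 1.49 ± 0.190 CPM in the mutants (SD, n = 6), which is 1.89-fold higher (log2 change 0.92, SE 0.18). LL0000017762 (3788 bases) was at 1.02, 0.998, 0.715 and 0.768 CPM in wild type and averaged 1.51 ± 0.229 CPM in the mutants (SD, n = 6), which is 1.73-fold higher (log2 change 0.79, SE 0.18). In both, the lowest mutant library (1.18 and 1.28 CPM) lay above the highest wild-type library (0.917 and 1.02 CPM).

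LL0000017759 (413 bases) and LL0000017773 (421 bases), of nearly equal length, also reached nearly equal mutant means. LL0000017768 (425 bases) had a like mutant mean of 0.740 CPM, but it was at 0.492 CPM in wild type, overlapped and was not called. LL0000017772, also of 425 bases, had a mutant mean of only 0.0175 CPM. LL0000017759 was at 0.0477, 0.272, 0.389 and 0.154 CPM in wild type and between 0.549 and 1.03 CPM in the mutants (log2 change 1.76, SE 0.41). LL0000017773 was at 0.143, 0.303, 0.373 and 0.293 CPM in wild type and between 0.550 and 1.05 CPM in the mutants (log2 change 1.41, SE 0.31). In both, wild-type replicate 1 was lowest and wild-type replicate 3 highest among the wild-type libraries. LL0000017771 (463 bases), between the last of these and LL0000017764, rose 2.47-fold from a mean of 0.122 to 0.302 CPM, a call lost without wild-type replicate 2 or 4. The largest fitted rise of any member was that of LL0000017764 (1082 bases), from 0.0522 ± 0.0513 (SD, n = 4) to 0.332 ± 0.0875 CPM (SD, n = 6), on sums of 14 wild-type and 74 mutant counts.

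Some rises were no longer called when a single library was left out. Each such fit called fewer genes over the whole table, 983 to 1400 higher against 1570 and 916 to 1274 lower against 1305. A lost call was therefore not taken to show that a change rests on that library. LL0000017646 (6608 bases) was at 2.85, 5.13, 3.45 and 3.79 CPM in wild type and at 5.18, 5.89, 5.51, 5.71, 6.29 and 5.82 CPM in the mutants, so wild-type replicate 2 nearly reached the lowest mutant. Its log2 change was 0.59 (SE 0.14), and the call was lost when wild-type replicate 1 (0.47) or 3 (0.55) was left out. LL0000017731 (4383 bases) was at 0.573, 0.197, 0.528 and 0.266 CPM in wild type and at 1.38, 0.864, 0.604, 0.922, 0.658 and 1.41 CPM in the mutants. Its log2 change was 1.32 (SE 0.35), and the call was lost without wild-type replicate 2 (1.10) or 4 (1.16) and without mutant replicate 1 (1.19) or 6 (1.19). Over the 10 fits that each left out a library, 8 of the 15 rises and 13 of the 14 falls were called every time. The like share was not calculated for all called genes, so nothing is read from these counts or from the difference between rises and falls. LL0000017681, LL0000017746 and LL0000017749 were called higher although their genotypes overlapped, and they were called again in 2, 2 and 4 of the 10 fits. LL0000017604 (called higher) and LL0000017701 (called lower) were each called again in 4.

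**Figure D4:**
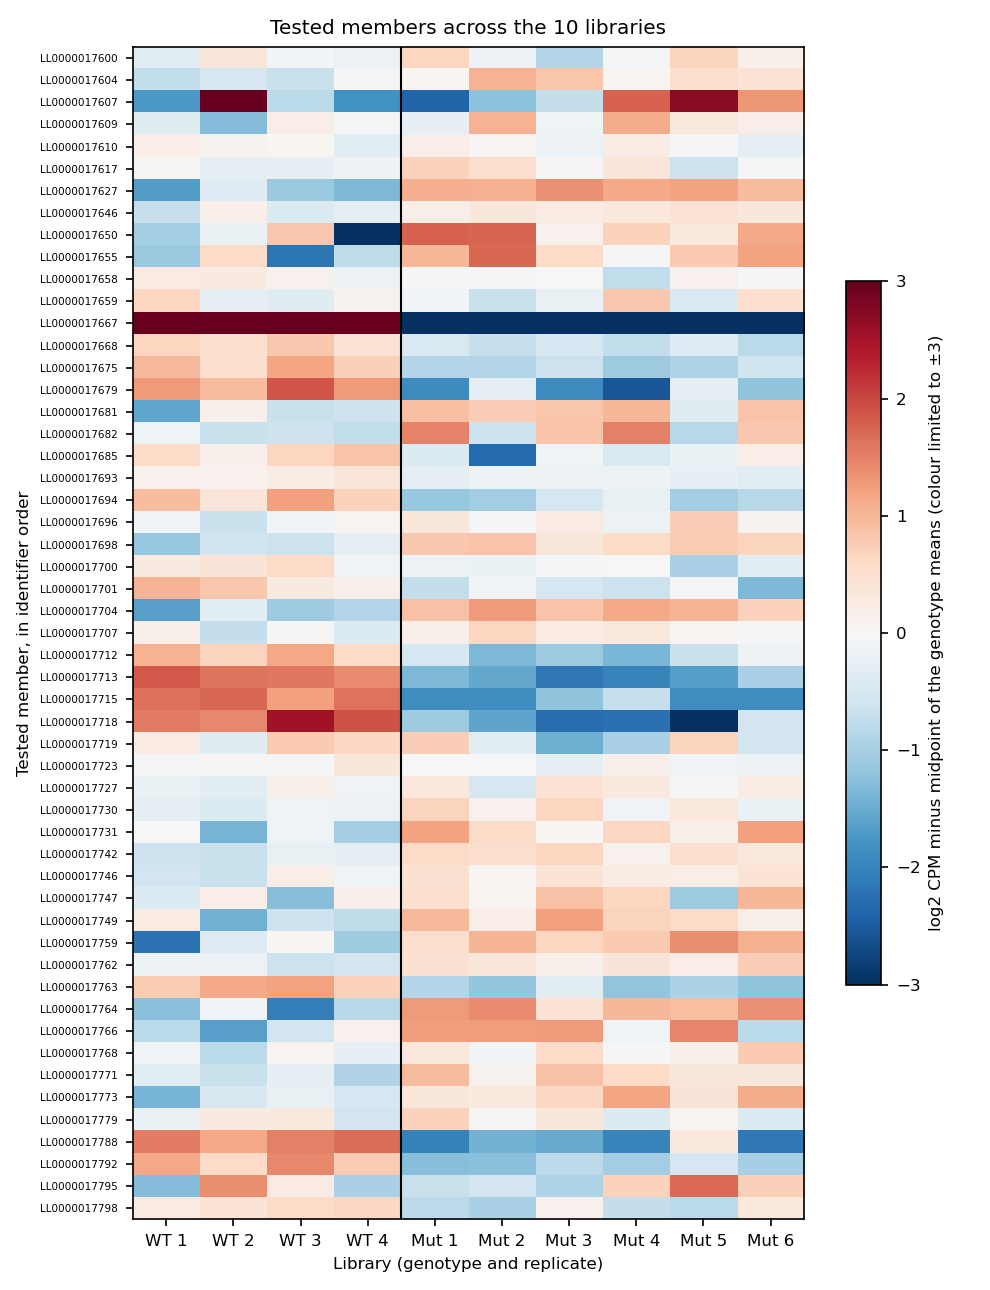
Log2 CPM (prior count 2) of the 53 tested members in each library, in identifier order, relative to the midpoint of the genotype means, with colour limited to ±3 (red higher, blue lower; WT wild type, Mut mutant, with replicate number). Runs of red in wild type and blue in mutants mark the falls at 17667 to 17679 and 17712 to 17718. LL0000017607 and LL0000017795 are red in wild-type replicate 2 and mutant replicate 5 instead.

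Members with 0 counts in every mutant library numbered 4, and 0 members had no count in every wild-type library. Over all rows with 10 or more counts, 0.285% had no mutant count and 0.0162% had no wild-type count. Besides LL0000017667, the 4 were LL0000017620, LL0000017684 and LL0000017800, with 20, 11 and 17 wild-type counts. Taking the same floor, they were at least 5.79-fold, 3.17-fold and 4.90-fold lower in the mutants, with the error of so few wild-type counts left aside. The exact binomial limits, which include that error, are weaker and allow mutant to wild-type ratios of up to 0.239, 0.4705 and 0.286. All 4 reached the minimum of 10 counts through the deeper wild-type libraries alone. All but LL0000017667, which held 2304 counts, lay near that minimum, so the number of such members can come in part from it. LL0000017800, the last member of the block (535 bases), had 9, 5, 1 and 2 counts in wild-type replicates 1 to 4, so its wild-type level rested mostly on replicates 1 and 2.

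These 3 belong to the 8 members that were not tested but separated the genotypes. LL0000017790 (2392 bases) was even across wild type, at 0.223, 0.182, 0.233 and 0.224 CPM, and had 1 count in all mutant libraries together against 57 in wild type. Its depth-corrected ratio was 0.0207 (exact binomial 95% limits of 5.16e-04 and 0.120, for counting error). LL0000017626 and LL0000017743 lay below wild type with 4 and 10 mutant counts against 49 and 77. The 2 that lay above were LL0000017695, with 52 mutant against 11 wild-type counts, and LL0000017767, with 37 against 13.

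More members held counts in the deeper wild-type libraries, and the gap was smaller at equal depth. Wild-type libraries held counts for 109 to 114 of the 120 members and mutant libraries for 95 to 106. All libraries were then reduced at random to the depth of the shallowest. Wild type held 104 ± 2.16 (SD, n = 4) and the mutants 96.8 ± 4.71 members (SD, n = 6). Mutant replicate 6, at 106, lay within the wild-type range of 102 to 107. Membership had been set by counts summed over all libraries at full depth. A weak row could thus become a member through wild-type counts alone, as LL0000017620, LL0000017684 and LL0000017800 did. The gap left at equal depth can come in part from that choice. It was not calculated for the other rows, so nothing is read from it. The summed level of the members was 91.2 ± 5.00 CPM in wild type (SD, n = 4) and 67.3 ± 2.09 CPM in the mutants (SD, n = 6). The largest parts of this difference came from LL0000017667 and LL0000017668, whose means are given above.

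The median spread between libraries of the same genotype was alike in the tested members and in other genes of like abundance. The median within-genotype SD of log2 CPM was 0.40 over the 53 tested members and 0.19 over the other genes tested. Among genes between the lower and upper quartile of the members' abundance it was 0.42 for 27 members and 0.42 for 4063 other genes. Calls of this contrast chose the block, and a call is easier at a narrow spread, so nothing is read from these medians.

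The widest spread belonged to LL0000017607 (197 bases), with a within-genotype SD of 2.17. It was at 0.0636, 3.46, 0.155 and 0.0559 CPM in wild type and at 0.0239, 0.105, 0.169, 1.13, 2.19 and 0.818 CPM in mutants 1 to 6. Wild-type replicate 2 and mutant replicates 4 to 6 were high and the other 6 libraries low, so the split ran across the genotypes. Its log2 change was -0.38 (SE 1.30) with all libraries and 2.95 (SE 1.20) without wild-type replicate 2.

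A like pattern was seen in 4 further members, by a rule set after their values were seen. LL0000017606 (225 bases), the identifier just before, was at 0.0318, 1.09, 0.218 and 0.224 CPM in wild type and at 0.0955, 0, 0.0242, 0.307, 0.689 and 0.157 CPM in the mutants. LL0000017795 (672 bases) was at 0.0477, 0.530, 0.218 and 0.0699 CPM in wild type and at 0.0955, 0.105, 0.0725, 0.307, 0.658 and 0.314 CPM in the mutants. LL0000017794 (658 bases) was at 0.0477, 0.650, 0.186 and 0.0559 CPM in wild type and at 0, 0.0262, 0.0242, 0.102, 0.313 and 0.220 CPM in the mutants. LL0000017661 (253 bases) was at 0.0636, 0.227, 0.140 and 0.0419 CPM in wild type and at 0, 0, 0, 0.179, 0.219 and 0.0314 CPM in the mutants, the last being 1 count. By that rule, in all 5 members wild-type replicate 2 was the highest wild-type library and mutant replicate 5 the highest mutant library. Mutant replicates 4 to 6 were each above mutant replicates 1 to 3. These were 5 of the 86 members with 30 or more counts (5.81%), and the same held for 149 of the 28137 rows of the table with as many counts (0.530%). The rule was drawn from these members, so nothing is read from the difference between the shares. Of the 5, LL0000017606 and LL0000017607 are adjacent, as are LL0000017794 and LL0000017795, and LL0000017661 lies apart from both pairs. How the authors' counting treated reads shared by near-identical or overlapping genes was not given, and whether adjacent members share reads was not tested.

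**Figure D5:**
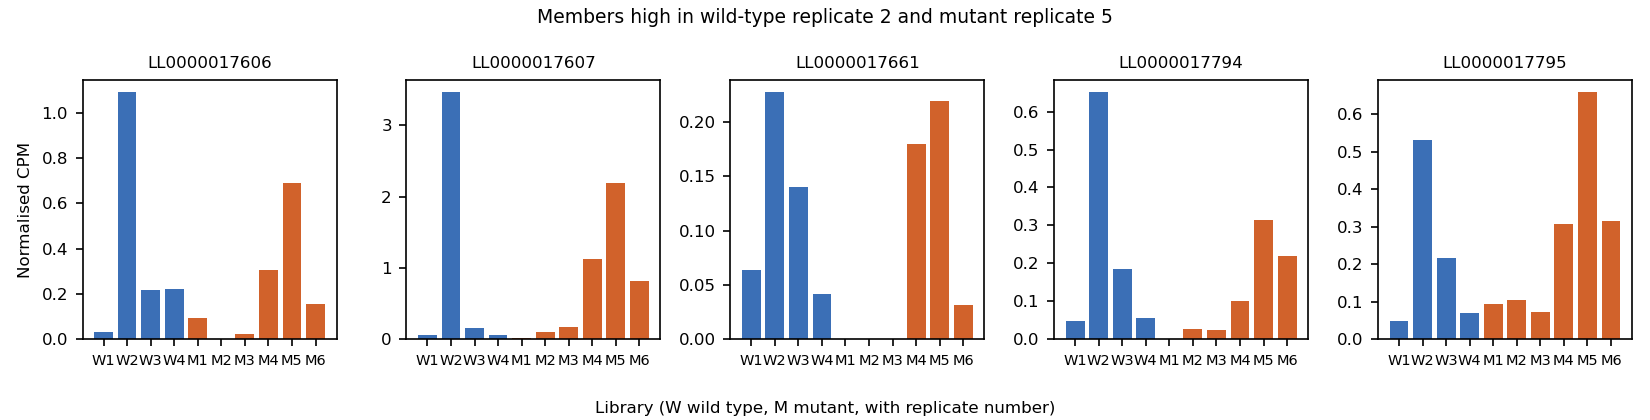
Normalised CPM in each library (W wild type, M mutant, with replicate number) of 5 members whose level varied within the genotypes, each panel with its own axis from 0. By the rule that chose the 5, wild-type replicate 2 and mutant replicate 5 are the highest libraries of their genotype in all panels. By the same rule, mutant replicates 4 to 6 lie above mutant replicates 1 to 3.

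A wide spread was also seen in LL0000017650 (3227 bases), at 0.175, 0.333, 0.730 and 0 CPM in wild type and at 1.46, 1.41, 0.435, 0.666, 0.501 and 0.912 CPM in the mutants. Wild-type replicate 4 held no count, wild-type replicate 3 overlapped the mutants, and the gene was not called (log2 change 1.55, SE 0.70).

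At the edges of the block and of the count minimum, the genotypes overlapped in every row listed here except LL0000017800. LL0000017600, the first member, was at 0.464 ± 0.110 (SD, n = 4) and 0.534 ± 0.209 CPM (SD, n = 6). Just outside, LL0000017599 had 10 counts in all and LL0000017801 was at 0.124 ± 0.0402 (SD, n = 4) and 0.129 ± 0.0449 CPM (SD, n = 6). The member with the fewest counts, LL0000017772, had 10, in wild-type replicates 1, 2 and 4 and in mutant replicate 2. Just under the minimum, LL0000017689, LL0000017733 and LL0000017740 had 9 counts each, and all 9 of LL0000017733 came from wild-type replicates 2 and 4.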

How the data were processed

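The authors deposited raw whole-number counts per gene and a gene length in bases for 10 libraries. The alignment names in the file headers contain the word Subread, and the submitters' processing notes name cutadapt, DESeq2, GRCz11 and danRer11 with no role. The sources used here name no annotation, counter or strand setting. Columns were matched to samples by library name. All 24608 genes kept by filterByExpr were fitted in R 4.3.3 with edgeR 4.0.16 (TMM, glmQLFit and glmQLFTest, robust, Benjamini-Hochberg over all genes), mutant against wild type, after a trial on simulated counts. The SE is the size of the log2 change over the square root of F. The alternative test was DESeq2 1.42.0. CPM are counts over TMM-scaled library sizes. The members and lists were chosen with earlier results of these data known. Named members are the up to 10 largest separated changes in each direction at a mean of at least 0.5 CPM (9 qualified in each), those near silent in a genotype (at most 3 counts against at least 0.5 CPM in every library), the 5 most abundant, the 5 widest within-genotype spreads at that mean, and the members and rows at the edges of the block and of the count minimum. Others named were chosen after their values were seen.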

Additional observations from a re-analysis of the deposited data

Results flagged for a closer look

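For 46 sets of library values of the named members, the gap between a library and its nearest neighbour was set against the genotype's range. Of these sets, 2 were marked. In sets drawn without regard to spread, chance is expected to mark about 1 in 20, or 2.30. Both marked members were among those named for a wide within-genotype spread, so that rate does not apply and nothing is read from the 2 figures. For LL0000017607, wild-type replicate 2 read 3.46 CPM, while the remaining wild-type values spanned 0.0559 to 0.155 CPM. For LL0000017788, mutant replicate 5 read 0.532 CPM, while the remaining mutant values spanned 0.0629 to 0.131 CPM; it was still below the lowest wild-type library at 0.983 CPM.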

How the results depend on the processing

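The counts of 15 members called higher and 14 called lower were 6 and 8 when genes had to reach 1 CPM in 4 or more libraries, where only 21 members could be tested. They stayed within 1.5 times under RLE size factors (14 and 14 of 53 tested). The same held with no low-count filter (14 and 19 of 120) and DESeq2 (19 and 19 of 98). The number tested differed, so like counts are not like shares. Over all genes, RLE called 1445 and 1352 of 24608, and no filter 1208 and 1454 of 33952. DESeq2 called 2031 and 1904 of 29333, and the 1 CPM minimum 1209 and 1024 of 20029. With each library left out in turn, 11 to 14 and 13 to 15 of 49 to 57 tested members were called. These counts also stayed within 1.5 times, and 23 to 27 of the 29 were called again and 0 in the opposite direction. Over all genes, these fits called 983 to 1400 higher and 916 to 1274 lower, of 24433 to 24962 tested. Replicates 1 to 4 gave 12 and 14 of 51 tested, and 12 and 13 of 51 with the replicate block. Over all genes they gave 1585 and 1571 of 24787, and 1328 and 1352 of 24787 with the block. The labels do not say that replicate numbers mark a shared clutch or day, so the numbers were not taken as pairs. Same-numbered libraries deviated together only weakly (correlations of 0.09, 0.08, -0.02 and -0.07). The most alike mutant library was the same-numbered one for wild-type replicates 1 and 2. It was mutant replicate 4 for wild-type replicate 3 and mutant replicate 5 for wild-type replicate 4. The single member present in wild type and near silent in mutants became 2 with a minimum of 0.25 CPM, LL0000017715 being the second. Of 317 recalculated log2 changes of 23 named members, 3 moved by more than the spread between libraries, and 0 called changes reversed. Those 3 were LL0000017607 without wild-type replicate 2 (2.95), LL0000017788 without mutant replicate 5 (-3.71) and LL0000017667 with DESeq2 (-10.8, a fitted value of a gene with no mutant count and no bound). Thinning, added after the data were seen, lowered the gap in detected members from 12.9 to 7.17, with membership still set by counts at full depth. Depth limits the members near the floor.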
